A study of Mus musculus with 6 samples.

Results

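The collagen genes expressed in the mouse cortex at E18.5 were compared between control embryos (Ctrl) and embryos with a conditional knockout (cKO) of Ybx1. Ybx1 encodes an RNA-binding protein. Members were taken by name: every gene whose symbol reads Col, a number, the letter a and a number. This gave 44 of the 17348 genes measured. In the cKO cortex the collagens lay a little higher as a group of genes. Of the 35 collagens that could be tested, 31 had a higher fitted level in cKO than in Ctrl, beside 50.6% of all tested genes. The differences were small: the median log2 fold change of the tested collagens was 0.25, and no single collagen passed the test once corrected for all genes.

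Collagens are secreted or membrane-bound proteins in which chains of the same or of related genes wind into a triple helix. Fibrillar collagens such as types I, III and V form the tensile fibrils of connective tissue, and in the brain they are made mainly by the fibroblasts of the meninges and around vessels. Type IV collagen forms the sheet-like network of basement membranes, which in the cortex underlie the pial surface, where the endfeet of radial glia attach, and surround every blood vessel. A smaller set of collagens is made by neurons themselves, several of them as transmembrane proteins whose ectodomain can be shed. Ybx1 carries a cold-shock domain that binds RNA, and the Y-box proteins were named after a promoter element that holds the letters ATTGG, the reverse complement of CCAAT.

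The libraries came from dissected E18.5 mouse cortices, with 3 cKO and 3 Ctrl replicates. The cKO embryos carried Nestin-Cre and floxed Ybx1 alleles (Nestin-Cre, Ybx1 fl/fl), in which Cre removes exons 3 to 8 of Ybx1. The labels call the control samples WT, and the study describes them as wild type control littermates. Elsewhere it uses Ctrl for Ybx1 fl/fl animals without Cre. The Nestin promoter drives Cre in neural progenitors and their descendants. Meningeal and vascular cells are the main makers of fibrillar and type IV collagen, and whether Cre acted in them was not tested here. The floxed line was made in C57BL/6J zygotes. The data set how far the level of each collagen in whole cortex differed between these groups.

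A library held 15091951 to 16885451 estimated counts, so that 3 counts, taken as the floor of detection, were worth 0.176 to 0.206 CPM (normalized counts, scaled to the library total after TMM correction). The floor covers counting error only. The targeted gene was measured at 1015, 1297 and 956 CPM in Ctrl and at 24.0, 24.8 and 24.9 CPM in cKO. Its log2 fold change was -5.47 (edgeR quasi-likelihood test, Benjamini-Hochberg adjusted p = 6.95e-07). Ctrl replicate 2 stood apart from the other libraries, with FPKM values summing to 522819 against 424951 to 446619 elsewhere. The groups also differed in transcripts of the Y chromosome: Kdm5d was at 50.1 to 76.2 CPM in the Ctrl libraries and at 0 counts in every cKO library, and the labels give no sex. Effects of genotype and of sex therefore cannot be told apart in any comparison here. The p-values weigh a difference between the groups against the spread between these libraries, and do not separate genotype from sex. With 3 libraries a group the smallest two-sided p of an exact permutation test is 0.1.

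The collagens spanned a wide range of levels. On the length-scaled TPM values, 5 collagens had a mean of 10 or more, 21 lay from 1 to under 10 and 18 lay under 1. Col4a1 was the most abundant at 76.2 ± 11.1 TPM in Ctrl and 103 ± 4.31 TPM in cKO (SD, n = 3), followed by Col4a2 at 53.7 ± 8.52 and 73.7 ± 2.93 TPM and by Col9a3, a chain of the fibril-associated collagen IX, at 51.0 and 59.1 TPM. Col4a1 and Col4a2 together made up 41.3% to 50.7% of the summed collagen TPM in each library. Col1a1, the major chain of collagen I in skin, bone and meninges, ranked 33 of 44 at a mean of 0.327 TPM in Ctrl and 0.477 TPM in cKO, and the mean of Col4a1 over all libraries was 223 times that of Col1a1. In the cortex as dissected, Col4a1 and Col4a2 were thus far more abundant than Col1a1 and than Col1a2, whose mean over all libraries was 2.37 TPM. The remaining type IV chains were not, with means from 0.195 TPM (Col4a3) to 2.99 TPM (Col4a5). TPM values lay higher in cKO for most genes. On log2(TPM + 1), 79.4% of all tested genes had a fold change above 0, with a median of 0.14. Differences between the groups are therefore read from the normalized counts and not from these TPM means.

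**Figure D1:**
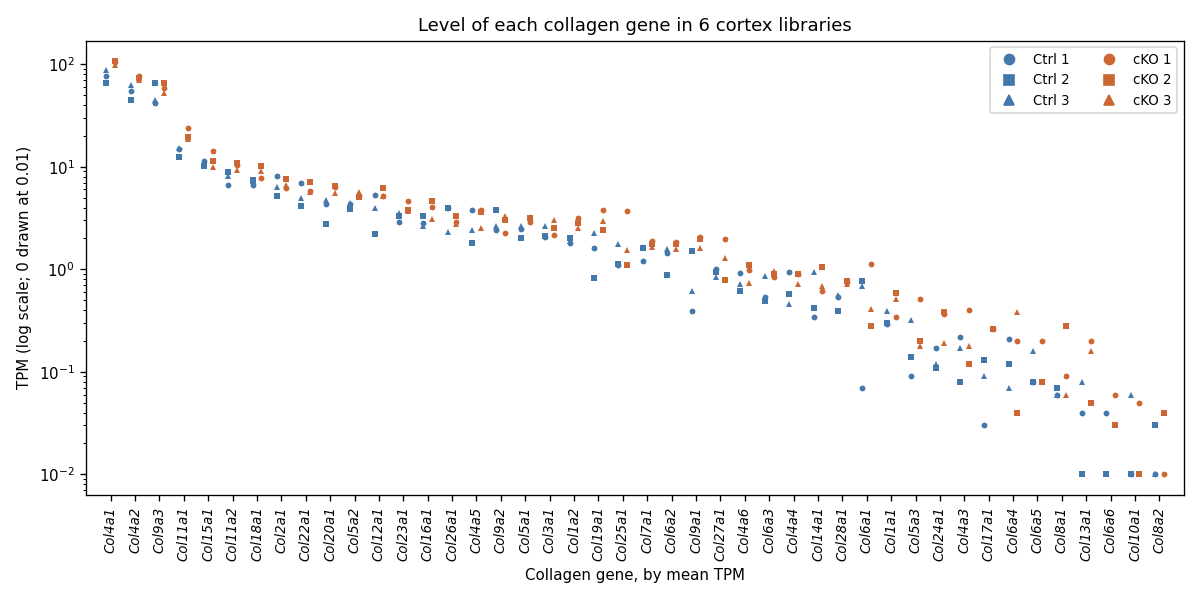
TPM (log scale) of each of the 44 collagen genes in the 3 Ctrl and 3 cKO libraries, ordered by mean TPM, with values of 0 drawn at 0.01. Col4a1, Col4a2 and Col9a3 stand above all others, and Col1a1 ranks 33.

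Of the 44 collagens, 35 passed the filter on low counts and were tested, 31 of them above the filter level in all libraries. The other 9 were Col5a3, Col24a1, Col17a1, Col6a5, Col8a1, Col13a1, Col6a6, Col10a1 and Col8a2, with at most 19 counts in any library, and Col6a6, Col10a1 and Col8a2 never exceeded 3 counts. None of the 35 passed an adjusted p of 0.05, a threshold that 0.0737% of the 13570 tested genes passed. At an unadjusted p under 0.05, which 6.62% of all tested genes met, 5 of the 35 collagens passed: Col4a1, Col4a2, Col11a1, Col19a1 and Col20a1. All 5 were higher in cKO, which is 14.3% of the tested collagens against 3.14% of all tested genes. No collagen was lower at this threshold, where 3.49% of all genes were. This count moved with the library left out, and so did the share of all tested genes at the same threshold. It was 0 without cKO replicate 1 (3.9% of all genes; 0 collagens at the adjusted threshold too), 2 without cKO replicate 2 (4.41%) and 4 without Ctrl replicate 1 (5.48%). It was 6 without cKO replicate 3 (3.57%), 10 without Ctrl replicate 2 (12.1%) and 8 without Ctrl replicate 3 (14%), of which 7 were higher and 1, Col26a1, was lower in cKO. The log2 fold changes of the 5 collagens stayed above 0 in each of these fits. In all 5 every cKO library lay above every Ctrl library, so leaving out 1 library could hardly turn the sign. Without cKO replicate 1 the log2 fold changes were 0.29 for Col4a1, 0.29 for Col4a2, 0.46 for Col20a1, 0.27 for Col11a1 and 0.69 for Col19a1.

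The direction was shared more widely than the calls. A log2 fold change above 0 was found in 31 of the 35 tested collagens (88.6%), against 50.6% of all tested genes. The mean CPM was higher in cKO for 39 of all 44, beside 6870 of the 13570 tested genes. That count includes the 9 untested collagens, where a few reads can set the direction. The median log2 fold change was 0.25 for the tested collagens and 0.0027 for all tested genes. Every cKO library lay above every Ctrl library for 9 of the 35 (25.7%, against 7.35% of all tested genes): Col4a1, Col4a2, Col11a1, Col20a1, Col5a1, Col5a2, Col1a2, Col19a1 and Col28a1. The opposite, every cKO library below every Ctrl library, was found for none of them and for 6.93% of all tested genes. Collagen genes are not independent of each other, since many are made by the same cells, so these shares are given as descriptions.

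Library by library, 29, 27 and 27 of the 35 tested collagens lay above their Ctrl mean in cKO replicates 1, 2 and 3, against 53.6%, 52.0% and 51.4% of all tested genes. Summed over all 44, the collagens reached 693, 695 and 717 CPM in Ctrl and 873, 868 and 792 CPM in cKO, so that the groups did not overlap. Leaving out cKO replicate 1 lowered the number of collagens with a log2 fold change above 0 from 31 to 27 of 35. The shares of all tested genes above 0 in these fits were 50.6% and 48.8%.

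**Figure D2:**
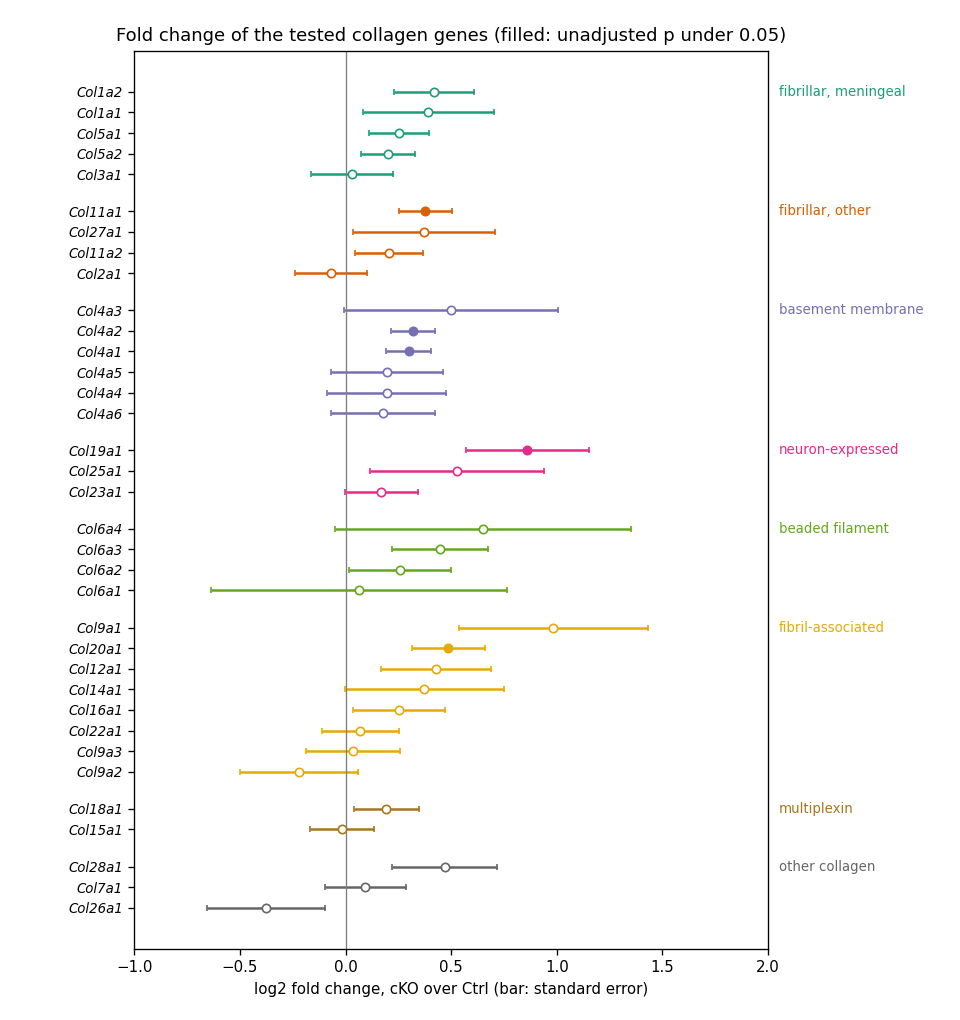
Log2 fold change (cKO over Ctrl, with standard error) of the 35 tested collagens by class, filled where the unadjusted p is under 0.05. Most points lie between 0 and 0.5, and 4 genes lie below 0.

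The basement membrane collagens made up most of the summed collagen counts. Col4a1 measured 218, 213 and 241 CPM in Ctrl and 279, 286 and 262 CPM in cKO. Col4a2, its partner in the α1α1α2 trimer found in nearly all basement membranes, measured 152, 143 and 167 CPM in Ctrl and 200, 193 and 184 CPM in cKO. For both genes every cKO library lay above every Ctrl library, as in 7.35% of all tested genes. The log2 fold change was 0.30 (SE 0.106) for Col4a1, with an unadjusted p of 0.0199 and an adjusted p of 0.608 in edgeR. For Col4a2 it was 0.32 (SE 0.106), with an unadjusted p of 0.0149 and an adjusted p of 0.580. These were 1.23-fold and 1.25-fold differences, and without Ctrl replicate 1, cKO replicate 1 or cKO replicate 2 neither gene met the unadjusted threshold. In those fits the log2 fold change was 0.28, 0.29 and 0.27 for Col4a1 and 0.31, 0.29 and 0.32 for Col4a2.

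The proportion of these chains varied little between libraries. The ratio of Col4a1 to Col4a2 counts was 1.45 ± 0.0272 in Ctrl and 1.43 ± 0.0424 in cKO (SD, n = 3; two-sided exact permutation p = 0.4), and ranged only from 1.40 to 1.49 over the libraries. On TPM, which corrects for length, the ratio was 1.42 ± 0.0256 in Ctrl and 1.40 ± 0.0423 in cKO. The difference between the groups in this ratio was smaller than the spread between libraries.

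Col4a1 and Col4a2 lie head to head on chromosome 8, on the minus strand at chr8:11198423-11312889 and on the plus strand at chr8:11312805-11449287 (RefSeq, GRCm38.p6), and their annotated spans overlap by 85 bases. The stretch around a start site of each gene is printed because both sites lie within it and each gene is read across the bases between them. It covers chr8:11312801-11312830 on the plus strand, with the 22 bases from the start site of Col4a2 to that of Col4a1 in capitals. The start site of Col4a1 used here, 11312826, lies inside its annotated span, so the overlap of 85 bases is counted from a different start.

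Col4a2-Col4a1 start sites: cggcAGTGCGCGGGCGGCGTCTCCAAgggg

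This stretch holds the letters GGGCGG, the core of a GC box. The other type IV chains are paired in the same way. Col4a3 and Col4a4 adjoin on chromosome 1 with an overlap of 114 bases, and Col4a5 and Col4a6 lie 1274 bases apart on chromosome X. Whether the libraries kept the strand of the RNA is not given in the sources used here, so reads from the overlapping bases of Col4a1 and Col4a2, or of Col4a3 and Col4a4, cannot be assigned by strand.

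The remaining type IV chains, which form the networks of specialised basement membranes such as that of the kidney glomerulus, were far lower. Col4a5 measured 10.7, 5.80 and 6.51 CPM in Ctrl and 10.1, 9.63 and 6.64 CPM in cKO, and Ctrl replicate 1 lay above all cKO libraries. Col4a6 was at 2.63, 1.99 and 1.99 CPM in Ctrl and at 2.54, 2.96 and 1.98 CPM in cKO. Both are X-linked, and their log2 fold changes of 0.20 (SE 0.264) and 0.18 (SE 0.245) were within their errors. Col4a4 was at 3.89, 2.69 and 1.85 CPM in Ctrl and at 3.47, 3.46 and 2.75 CPM in cKO (log2 fold change 0.19, SE 0.282). Col4a3 gave only 13, 6 and 9 counts in Ctrl and 23, 7 and 10 in cKO, with cKO replicate 1 alone above the Ctrl range (log2 fold change 0.50, SE 0.506). All 6 type IV chains had a fold change above 0, beside 50.6% of all tested genes, with a median of 0.25. Without Ctrl replicate 3 the value of Col4a4 was -0.025, and without cKO replicate 1 that of Col4a3 was -0.13.

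The type IV class as a whole summed to 388, 367 and 420 CPM in Ctrl and to 496, 496 and 458 CPM in cKO. Endothelial and mural cells make most vascular type IV collagen. The 10 endothelial markers, with Kdr and Flt1 the most abundant, summed to 278, 278 and 291 CPM in Ctrl and to 372, 291 and 300 CPM in cKO, so that cKO replicate 1 stood highest. Of the 9 tested, 8 had a fold change above 0 (median 0.14), and 1, Cdh5, the adhesion protein of endothelial junctions, met the unadjusted threshold at a log2 fold change of 0.41. The 10 mural markers, led by Rgs5 and Abcc9, summed to 205 to 277 CPM in Ctrl and 247 to 280 CPM in cKO. Of the 7 tested, 6 were above 0 (median 0.19) and 1, the pericyte receptor Pdgfrb, met the unadjusted threshold at 0.27. Over all tested genes, 50.6% lay above 0 and 3.14% met the unadjusted threshold with higher values in cKO. Cdh5 and Pdgfrb were named after their values were seen. No vascular marker was at 0 in all libraries, and Slco1a4 did not exceed 3 counts in any. The part of these markers in the type IV values was not tested, and in bulk tissue more cells of a type and more RNA per cell cannot be told apart.

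Most other genes of the basement membrane lay in the same direction. Of the 15 laminins, nidogens and heparan sulfate proteoglycans listed, 14 were tested. A log2 fold change above 0 was found in 13 of them, beside 50.6% of all tested genes, with a median of 0.25 beside 0.0027 for all genes. None passed the adjusted threshold, and 4 met the unadjusted one, all higher in cKO, beside 3.14% of all tested genes. Lamc1, the γ1 chain shared by most laminin trimers, measured 83.3, 63.0 and 84.2 CPM in Ctrl and 97.4, 97.6 and 94.8 CPM in cKO, a log2 fold change of 0.33 (SE 0.130). Lama5, the α chain of laminins in vessel walls and the pial surface, had a log2 fold change of 0.48, Lama2 one of 0.40 and Nid2, which links laminin to type IV collagen, one of 0.35. In 5 genes of the list every cKO library lay above every Ctrl library, beside 7.35% of all tested genes. These 5 include the 4 genes above. Those 4 were named for meeting the unadjusted threshold in these libraries, so their separation follows from the choice. Agrn and Lamc1 were the most abundant of the list, and Agrn had a log2 fold change of 0.035 (SE 0.109). Lama1 lay below 0, at -0.24 (SE 0.185). The list summed to 943 to 1088 CPM in Ctrl and 1083 to 1147 CPM in cKO, so that the groups overlapped.

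The meningeal fibrillar collagens (Col1a1, Col1a2, Col3a1, Col5a1 and Col5a2) summed to 31.2, 32.9 and 32.6 CPM in Ctrl and to 35.8, 37.6 and 39.5 CPM in cKO, without overlap. Every one of the 5 had a log2 fold change above 0, beside 50.6% of all tested genes, with a median of 0.25. None of the 5 met even the unadjusted threshold. Collagen V, which regulates the diameter of type I fibrils, was the most abundant of the class. Its Col5a2 chain measured 12.4, 12.8 and 12.1 CPM in Ctrl and 13.9, 13.7 and 15.2 CPM in cKO (log2 fold change 0.20, SE 0.129). Its Col5a1 chain measured 9.03, 8.43 and 9.25 CPM in Ctrl and 9.78, 11.0 and 11.0 CPM in cKO (0.25, SE 0.143). In both, and in Col1a2 of the same class, the lowest cKO library lay above the highest Ctrl library, as in 7.35% of all tested genes.

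Col1a2, the minor chain of collagen I, came nearest to the unadjusted threshold within this class. It measured 4.08, 5.09 and 4.11 CPM in Ctrl and 6.62, 5.92 and 5.24 CPM in cKO. Its groups were apart, with a log2 fold change of 0.42 (SE 0.188, edgeR unadjusted p = 0.0535, adjusted p = 0.763). Col1a1, the major chain, gave only 12, 15 and 14 counts in Ctrl and 13, 22 and 19 counts in cKO. Its groups overlapped, and its log2 fold change of 0.39 had an SE of 0.309. The count ratio of Col1a2 to Col1a1 was 5.17 ± 0.787 in Ctrl and 5.61 ± 2.27 in cKO (SD, n = 3; exact permutation p = 0.9).

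Col3a1, the sole chain of collagen III and the ligand of the receptor Adgrg1 on radial glia, differed least within this class. It measured 4.95, 5.74 and 6.17 CPM in Ctrl and 4.77, 5.67 and 6.77 CPM in cKO, so that the lowest and the highest library were both cKO. The log2 fold change was 0.029 (SE 0.195), and it turned to -0.054 without Ctrl replicate 1 and to -0.11 without cKO replicate 3. Adgrg1 itself was at 159, 168 and 158 CPM in Ctrl and at 162, 156 and 160 CPM in cKO, a log2 fold change of -0.025 (SE 0.0963) with overlapping groups. The ratio of Col3a1 to Col1a2 counts was 1.28 ± 0.195 in Ctrl and 0.990 ± 0.288 in cKO (exact permutation p = 0.3). Neither the ligand nor its receptor thus differed by more than the spread between libraries.

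Markers of meningeal fibroblasts gave no separation between the groups. Of 17 listed, 15 were in the table, and their summed level was 74.3 to 88.6 CPM in Ctrl and 80.8 to 88.3 CPM in cKO. Of the 8 tested, 6 had a fold change above 0, beside 50.6% of all tested genes, and none met the unadjusted threshold (median 0.067). The most abundant, Igf2 and Zic1, are not particular to meninges, and Aldh1a2 did not exceed 3 counts. Bone and cartilage markers, a check for skull tissue, summed to 3.01 to 4.27 CPM in Ctrl and 3.34 to 4.64 CPM in cKO. Choroid plexus markers summed to 1.71 to 1.88 and 1.47 to 2.23 CPM, with Ttr, Folr1 and Kl at 3 counts or fewer in every library. Erythroid markers, a measure of blood, summed to 983 to 1350 CPM in Ctrl and 998 to 1216 CPM in cKO.

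**Figure D3:**
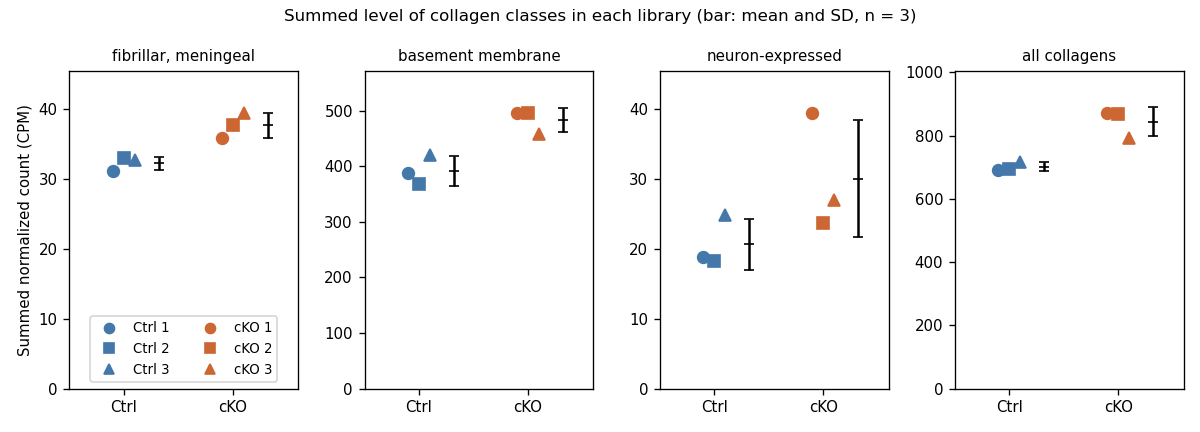
Summed normalized count (CPM) of the meningeal fibrillar, basement membrane and neuron-expressed classes and of all 44 collagens in each library (points), with the mean and SD of 3 libraries beside them. The groups are apart in the fibrillar and basement membrane classes and in the total, and cKO replicate 1 stands above all others in the neuron-expressed class.

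The neuron-expressed collagens held the largest single-gene difference among the 5 collagens that met the unadjusted threshold. Col9a1, of the fibril-associated class, had a larger log2 fold change of 0.98 (SE 0.448, edgeR unadjusted p = 0.0558). It gave 8, 36 and 11 counts in Ctrl and 41, 37 and 30 in cKO. Col9a1 and Col19a1 lie 4944 bases apart on opposite strands of chromosome 1, and whether reads of one were counted for the other was not tested. Col19a1, which is made by subsets of interneurons, measured 7.65, 4.45 and 10.5 CPM in Ctrl and 16.7, 10.8 and 13.3 CPM in cKO. The lowest cKO library lay just above the highest Ctrl library, and the log2 fold change was 0.86 (SE 0.293, edgeR unadjusted p = 0.0165, adjusted p = 0.589). Leaving out 1 library at a time kept it between 0.59 and 1.17.

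Col25a1, a transmembrane collagen required for motor innervation of muscle and found in amyloid plaques, measured 3.57, 4.16 and 5.69 CPM in Ctrl and 11.2, 3.40 and 4.66 CPM in cKO. Only cKO replicate 1 lay above the Ctrl range, and the log2 fold change of 0.53 (SE 0.413) turned to -0.15 without it. Col23a1, another transmembrane collagen, measured 7.02, 9.25 and 8.29 CPM in Ctrl and 10.5, 8.69 and 8.43 CPM in cKO, with a log2 fold change of 0.17 (SE 0.173). Col24a1, a fibrillar-type collagen of bone and cortex, was too low to test, at 8, 6 and 5 counts in Ctrl and 16, 12 and 8 counts in cKO. The class summed to 18.7, 18.2 and 24.8 CPM in Ctrl and to 39.4, 23.6 and 26.9 CPM in cKO, so that cKO replicate 2 fell below Ctrl replicate 3. The median log2 fold change of the 3 tested members was 0.53, and lay between 0.065 and 0.83 when 1 library was left out.

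The 9 cortical neuron and progenitor markers, led by Neurod6, summed to 2263 to 2547 CPM in Ctrl and to 2022 to 2324 CPM in cKO. Of these, 5 had a fold change above 0, beside 50.6% of all tested genes, and the median was 0.050. The exception at the unadjusted threshold was Pax6, the transcription factor of radial glia, at a log2 fold change of 0.31 (named after its value was seen). The part of these markers in the values of the neuron-expressed collagens was not tested.

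Among the remaining classes, Col11a1 and Col20a1 met the unadjusted threshold. Col11a1, a fibrillar chain of cartilage that is also made in developing brain, measured 42.2, 36.2 and 41.0 CPM in Ctrl and 59.0, 49.3 and 46.6 CPM in cKO. All cKO libraries lay above all Ctrl libraries (log2 fold change 0.38, SE 0.126, edgeR unadjusted p = 0.0152, adjusted p = 0.585). Col20a1, a fibril-associated collagen, measured 13.9, 10.1 and 14.8 CPM in Ctrl and 18.8, 19.3 and 16.2 CPM in cKO. These groups were apart as well (0.49, SE 0.171, edgeR unadjusted p = 0.0195, adjusted p = 0.607).

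The other abundant collagens showed no such separation. Col9a3 measured 48.6, 87.1 and 49.1 CPM in Ctrl and 62.4, 71.1 and 55.9 CPM in cKO, with Ctrl replicate 2 above every other library. Its log2 fold change was 0.034 (SE 0.223), and it was 0.37 without Ctrl replicate 2. Col15a1, a multiplexin of vascular basement membranes whose C-terminal fragment resembles endostatin, measured 25.4, 24.6 and 22.2 CPM in Ctrl and 28.2, 23.4 and 19.7 CPM in cKO. The cKO libraries spanned the Ctrl range, and the log2 fold change was -0.018 (SE 0.152). The other 3 tested collagens with a lower fitted level in cKO were Col26a1 (-0.38, SE 0.280), Col9a2 (-0.22, SE 0.281) and Col2a1 (-0.069, SE 0.168), each within 1.5 standard errors of 0.

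By class, the median log2 fold change was 0.29 for the 4 tested fibrillar collagens outside the meningeal set and 0.31 for the 8 fibril-associated collagens. Of those 8, 7 were above 0, beside 50.6% of all tested genes. The median was 0.35 for the 4 tested type VI chains of beaded filaments. The 2 multiplexins had a median of 0.088 and the 3 tested members of no other class one of 0.094. The summed type VI chains, at 5.71 to 7.47 CPM in Ctrl and 6.86 to 9.04 CPM in cKO, overlapped between the groups.

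Collagen genes are long, and fold changes in these libraries moved with transcript length. The longest annotated transcript of a collagen had a median of 5989 bases against 3544 over all tested genes, with a GC content of 55.1% against 49.7%. The median log2 fold change of all tested genes went from -0.11 in transcripts up to 2 kb to 0.038 at 4 to 6 kb, 0.092 at 6 to 8 kb and 0.12 above 8 kb. Collagens of the same lengths had medians of 0.25 (13 genes at 4 to 6 kb), 0.32 (11 genes at 6 to 8 kb) and 0.25 (7 genes above 8 kb), and -0.093 for the 4 genes at 2 to 4 kb, where all genes had -0.022. With a correction for length and GC content in each library, the median of the tested collagens was 0.24 beside -0.0072 for all genes. Of the 35, 29 lay above 0 beside 48.2% of all genes, and 6 met the unadjusted threshold beside 12.3% of all genes. Those 6 included Col1a2 and Col9a1, and no longer Col11a1, whose log2 fold change went from 0.38 to 0.25 (unadjusted p = 0.0587 in edgeR). Under the same correction the value of Col5a2 went from 0.20 to 0.095, that of Col4a4 from 0.19 to 0.066 and that of Col4a6 from 0.18 to 0.12, while Col4a1 was at 0.24 and Col4a2 at 0.27.

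**Figure D4:**
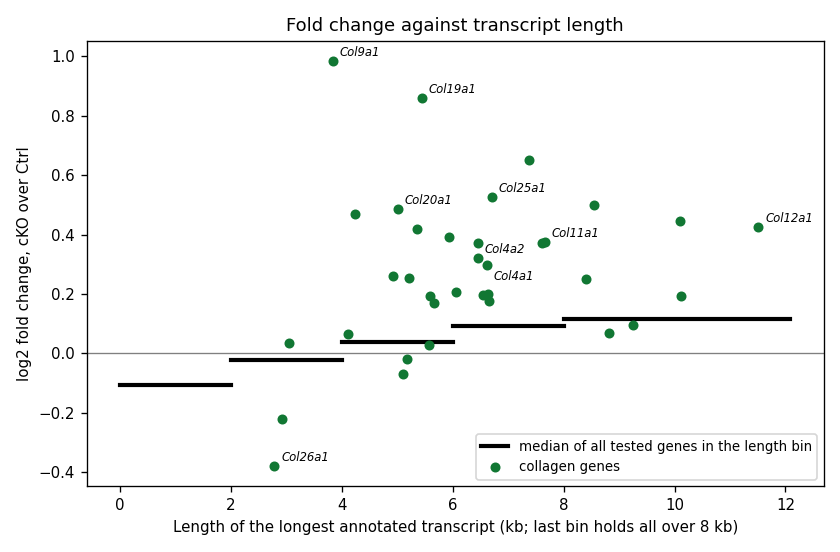
Log2 fold change (cKO over Ctrl) of the 35 tested collagens against the length of the longest annotated transcript in kb, with black lines for the median of all tested genes in each length bin. The line climbs from -0.11 to 0.12, and most collagens above 4 kb lie over it.

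The machinery that makes, anchors and removes collagen was read from lists of the pathway. Of 22 genes for collagen synthesis and folding, all tested, none passed the adjusted threshold and 17 had a log2 fold change above 0 (median 0.18). At the unadjusted threshold 3 were higher and 1 was lower in cKO. Over all tested genes, 50.6% lay above 0, and at the unadjusted threshold 3.14% were higher and 3.49% lower. Serpinh1, the collagen-specific chaperone HSP47, measured 62.9, 66.8 and 48.9 CPM in Ctrl and 88.7, 73.3 and 74.2 CPM in cKO, with the groups apart (log2 fold change 0.40, SE 0.143). Plod2, which hydroxylates the telopeptide lysines used for cross-links, had a log2 fold change of 0.49 (SE 0.136). Creb3l1, a transcription factor that activates procollagen and its secretion, had one of 0.86 (SE 0.304) from a level of only 0.685 CPM in Ctrl.

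P3h1, the enzyme that 3-hydroxylates a proline of collagen chains, was the only gene of this list at the unadjusted threshold with lower values in cKO. It measured 12.0, 17.0 and 11.0 CPM in Ctrl and 5.94, 4.85 and 4.34 CPM in cKO, a log2 fold change of -1.40 (SE 0.216, edgeR adjusted p = 0.0969). All cKO libraries lay below all Ctrl libraries. Crtap and Ppib, with which it forms a complex, gave 0.054 (SE 0.268) and -0.040 (SE 0.141). P3h1 lies at chr4:119232915-119248977 and Ybx1 at chr4:119277327-119296265 (RefSeq, GRCm38.p6), with 28349 bases between the annotated genes, so a difference at P3h1 through its position beside the floxed gene and one through the loss of Ybx1 protein cannot be told apart.

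Processing and cross-linking genes had no common direction, with 5 of 11 tested genes above 0, beside 50.6% of all tested genes, and a median of -0.044. Bmp1 was lower in every cKO library than in any Ctrl library (-0.15, SE 0.108), as were 6.93% of all tested genes, without meeting the unadjusted threshold. Adamts2, which removes the N-propeptide of procollagens, measured 17.2, 19.8 and 22.1 CPM in Ctrl and 24.4, 35.7 and 31.0 CPM in cKO (log2 fold change 0.62, SE 0.167). The lysyl oxidase Loxl2, which cross-links type IV collagen, gave 0.47 (SE 0.198). Adamts2 and Loxl2 met the unadjusted threshold only, which 3.14% of all tested genes met with higher values in cKO. Sparc, a collagen-binding matricellular protein, was at 129, 151 and 115 CPM in Ctrl and at 180, 129 and 136 CPM in cKO with overlapping groups (0.17, SE 0.157).

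Among 11 tested collagen receptors, 9 had a fold change above 0 (median 0.26), beside 50.6% of all tested genes. The unadjusted threshold was met by 2, with higher values in cKO, beside 3.14% of all tested genes. Itgb1, the β1 chain of all collagen-binding integrins, measured 173, 138 and 178 CPM in Ctrl and 220, 199 and 206 CPM in cKO (0.35, SE 0.124). Itga2, one of its collagen-binding partners, gave 0.57 (SE 0.208). Of the 9 tested genes of collagen breakdown, which hold proteases and their inhibitors, 6 had a fold change above 0 (median 0.10), beside 50.6% of all tested genes. The metalloproteinase Mmp14 was lower in every cKO library than in any Ctrl library (-0.22, SE 0.106), as were 6.93% of all tested genes, without meeting the unadjusted threshold. The metalloproteinase inhibitors Timp3 and Timp2 met that threshold, with higher values in cKO, beside 3.14% of all tested genes. Timp3 measured 32.5, 24.4 and 23.8 CPM in Ctrl and 47.8, 39.7 and 37.7 CPM in cKO (0.63, SE 0.156), and Timp2 gave 0.33 (SE 0.106). The small leucine-rich proteoglycans, which coat collagen fibrils, summed to 18.9, 19.4 and 19.6 CPM in Ctrl and to 22.7, 22.6 and 22.6 CPM in cKO, with a median of 0.15 over the 4 tested and none past the unadjusted threshold. In each of these 6 lists 0 genes passed the adjusted threshold.

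**Figure D5:**
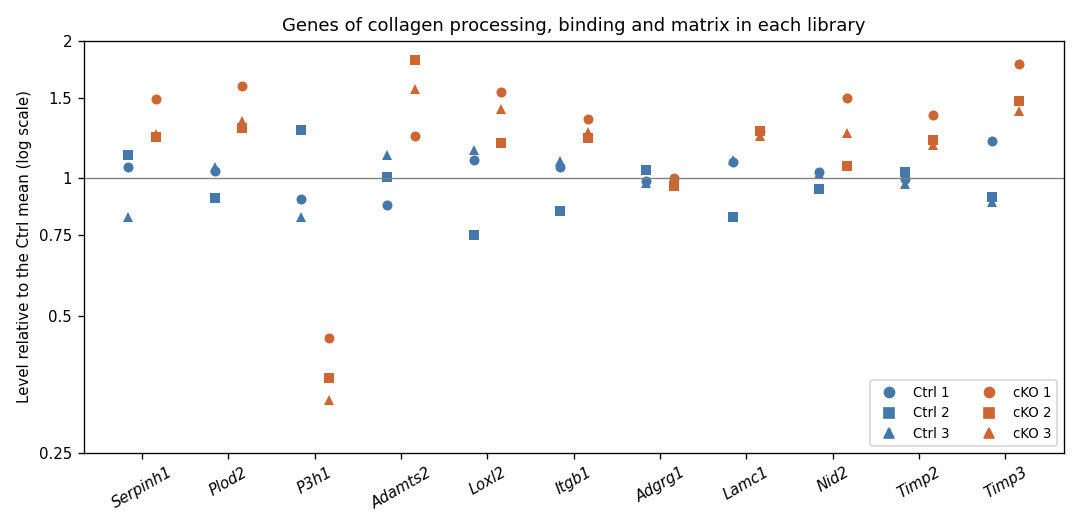
Level of 11 genes of collagen folding, processing, binding, basement membrane and breakdown in each library, relative to the Ctrl mean (log scale). P3h1 lies below 1 in all cKO libraries, the groups overlap at Adgrg1, and the cKO libraries lie above the Ctrl libraries at the other genes. All genes drawn except Adgrg1 met an unadjusted p under 0.05 in these libraries, so their separation follows from the choice. Mmp14 and Bmp1, lower in every cKO library than in any Ctrl library, are not drawn.

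Promoter sequence was examined for the letters that gave Y-box proteins their name. A RefSeq window from 250 bases before to 50 bases after the start site was at hand for 35 of the 44 collagens, with 38 windows in all. CCAAT, read on either strand (ATTGG on the other), was found in 13 of 38 collagen windows (34.2%) and in 37.4% of all 32851 windows. The GC box core GGGCGG (or CCGCCC) was in 23 of 38 (60.5%) against 35.7% of all windows, and TATAAA (or TTTATA) in 5 of 38 (13.2%) against 13.6%. None of these motifs contains another, and a match is only a description of the sequence.

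Of the 5 collagens at the unadjusted threshold, Col4a1, Col4a2 and Col11a1 had a CCAAT match in the window and Col19a1 and Col20a1 did not. The matches of those 3 and the upstream one of Col1a2, which has another at its start site, are printed on the strand of each gene with the matching letters in capitals. They lie at chr8:11312954-11312983 (minus strand, first matching base at position -145 from the start site), chr8:11312761-11312790 (-32), chr3:114030449-114030478 (-79) and chr6:4505497-4505526 (-109), the last 3 on the plus strand of GRCm38.p6.

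Col4a1: tgcttgcccgggATTGGcgagccaaggggc
Col4a2: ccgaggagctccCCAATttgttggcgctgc
Col11a1: gggaggcctgtgATTGGgtatgaccttcag
Col1a2: aaaagaatggaaCCAATttaagaagccccg

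Collagens with and without the letters were both among those with cKO libraries apart from Ctrl.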

How the data were processed

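RNA of 3 Ctrl and 3 cKO E18.5 cortices was sequenced as mRNA libraries on the DNBSEQ platform. The authors deposited 1 table that gives each gene's estimated count, TPM and FPKM in every library. The submitters' processing notes name HISAT2 2.2.1, Bowtie2 2.4.5, RSEM 1.3.1 and the build GRCm38 (mm10), with no roles. The annotation and strandedness are not given in the sources used here. The deposited estimated counts carry no normalization, and 89.4% were whole. The authors' TPM sums to the same total in each library. The authors' FPKM was used only to compare libraries. The 6 columns of the authors' group means were not used, and 0 columns of per-sample values were left over.

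Estimated counts were rounded, filtered with filterByExpr, scaled by TMM and tested by quasi-likelihood in edgeR 4.0.16 under R 4.3.3, with Benjamini-Hochberg adjustment over all 13570 tested genes and a threshold of 0.05. Standard errors are the fold change divided by the root of F. The common biological coefficient of variation was 0.147. A fit to 13495 genes of simulated counts for cKO against Ctrl found 44.8% of genes changed 1.5-fold, 92.5% of those changed 2-fold and 98.5% of those changed 4-fold, with 8 false calls, and 0 calls when no gene was changed. Replicates were checked for duplicates and none was found: the chi-square per degree of freedom over genes was 3.41 to 62.4, with the highest values for pairs that hold Ctrl replicate 2.

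Members, classes and lists were chosen with earlier results of these data known. Classes follow the known biology of each chain. The genes named are all meningeal fibrillar, basement membrane and neuron-expressed collagens, every collagen with an unadjusted p under 0.05 and the 5 with the highest mean TPM. Added to these are Ybx1, Adgrg1, Serpinh1, Sparc, P3h1, pathway genes with an unadjusted p under 0.05 and the most abundant genes of a marker list. Other genes named were chosen after their values were seen. Lists and classes were described by counts and medians, with no test of a list. 2 marker genes are not reported here and were left out of their list. Transcript length and GC content came from GENCODE and positions and promoter windows from RefSeq, GRCm38.p6. All 44 collagens had a position, a length and a GC content. Figures were drawn with matplotlib 3.10.9.

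The alternatives were a replicate block by number, DESeq2 1.42.0, RLE size factors, no filter on low counts, CPM above 1 in 2 libraries, limma 3.58.1 on log2(TPM + 1), a smooth correction for length and GC content (mgcv 1.9.3) with and without the block, and each library left out.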

Additional observations from a re-analysis of the deposited data

How the results depend on the processing

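The medians of the meningeal fibrillar, basement membrane and neuron-expressed collagens stayed above 0 in all 14 alternatives, between 0.17 and 0.31, 0.15 and 0.41, and 0.065 and 0.83. The number of collagens past the adjusted threshold was 0 in every alternative except without Ctrl replicate 2, where it was 1 (Col9a1, log2 fold change 1.85, edgeR adjusted p = 0.0387), so it ranged from 0 to 1 when 1 library was left out. The number at an unadjusted p under 0.05 was 5 to 7 in the alternatives that kept all libraries (5.87% to 13.9% of all tested genes), and ranged from 0 to 10 when 1 was left out (0 without cKO replicate 1, 2 without cKO replicate 2, 8 without Ctrl replicate 3 and 10 without Ctrl replicate 2, beside 3.9%, 4.41%, 14% and 12.1% of all tested genes). DESeq2 gave 6 collagens at the unadjusted threshold and 0 at the adjusted one, while it called 99 genes in all against 10 in edgeR, and the length and GC correction called 146. The cause of these differences was not tested.

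With the replicate number as a block, 6 collagens met the unadjusted threshold (7.62% of all tested genes did) and 0 the adjusted one. Adding the correction for length and GC content to the block gave 6 and 0 beside 13.9% of all genes at the unadjusted threshold. Deviations of same-numbered Ctrl and cKO libraries correlated at 0.088, 0.061 and 0.23, and those of other pairs at -0.15 to 0.059, so that each library correlated best with its own number. The series' description speaks of 3 sequencing batches but does not tie them to these numbers.

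Directions turned for collagens with a fold change near 0 or resting on 1 library. Col3a1 was at -0.015 under the length and GC correction, -0.021 with the block added, -0.054 without Ctrl replicate 1 and -0.11 without cKO replicate 3. Col15a1 was at -0.16 without cKO replicate 1, but at 0.12 on log2(TPM + 1), 0.023 without Ctrl replicate 1 and 0.099 without cKO replicate 3. Col9a3 was at -0.11 without Ctrl replicate 1, -0.10 without Ctrl replicate 3 and -0.058 without cKO replicate 2, but at 0.37 without Ctrl replicate 2. Col4a4 was at -0.025 without Ctrl replicate 3 and 0.50 without Ctrl replicate 1, where Col4a3 was at 0.80, and without cKO replicate 1 Col25a1 was at -0.15 and Col4a3 at -0.13. The TPM scale moved the median of all genes to 0.14, and 33 of 35 collagens lay above 0 on it beside 79.4% of all genes, with a median of 0.25. On that scale Col1a1 was at 0.15, Col25a1 at 0.33 and Col4a3 at 0.088. Depth limits the 9 untested collagens and Col1a1, Col4a3 and Col6a1, whose counts were few.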
